A study of Mus musculus with 7 samples.

Results

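The suppressor of cytokine signalling (SOCS) genes and the Pim kinase genes were followed in LLC1, a cultured mouse Lewis lung carcinoma line, with and without knockdown of Ddx54. The 10 genes were taken by symbol from the deposited count table: Cish, Socs1 to Socs7, Pim1 and Pim3. All 10 were among the 24419 genes of the table, and all 10 passed the filter on low counts that left 11594 tested genes. The knockdown group (labelled DDX54 KD) held 3 libraries of LLC1 cells given an shRNA against Ddx54, which encodes a DEAD-box RNA helicase. The wild-type group (labelled WT DDX54) held 4 libraries of LLC1 cells, for which the labels name no control shRNA. An effect of being given an shRNA therefore cannot be told apart from an effect of lower Ddx54 in any result below. Both groups were grown in medium with serum, with no added cytokine named, and are of polyadenylated RNA from a single cell line. The labels do not say whether replicates were separate cultures. The p-values therefore reflect the spread among these 7 libraries only, which may be technical.

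Cytokine receptors without kinase activity of their own signal through Janus kinases (JAKs), which phosphorylate STAT transcription factors. Active STATs switch on Cish and several Socs genes, whose products bind the receptors or JAKs through an SH2 domain, recruit a ubiquitin ligase through the SOCS box, and so close a negative feedback loop. STATs also induce the Pim genes, which encode serine/threonine kinases that promote survival and translation in lymphoid and solid tumours.

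The 7 libraries held 14987324 to 18673395 counts, and 1 CPM, the read count scaled to library size, stood for 14.7 to 18.4 reads. Ddx54 itself averaged 43.6 ± 3.81 CPM in knockdown and 81.2 ± 2.08 CPM in wild type (SD, n = 3 and n = 4), and each library's level went with its label. On the opposite strand, Gm43579 shares 869 exonic bases with Ddx54 and Cfap73 shares 78, so their reads cannot be told apart from those of Ddx54. Rn45s, the 45S pre-ribosomal RNA, took 7.96 to 9.07% of counts in knockdown and 10.7 to 12.5% in wild type. The only check made was to leave it out of the library sizes. That check cannot show whether what set the Rn45s share apart also bears on other genes, which was not tested. The keratins Krt8 and Krt18 were expressed, at 23.6 and 132 CPM in knockdown against 20.3 and 217 CPM in wild type. Krt18 fell (-0.72, adjusted p = 4.62e-10, edgeR), as did the keratin gene Krt19, at 1.08 CPM in knockdown against 4.39 CPM in wild type (-2.03, adjusted p = 0.000811, edgeR), and Krt8 did not pass. The epithelial markers Epcam and Cdh1 were at most 0.05 CPM on average in either group. The summed level of the 5 epithelial markers was 148 to 168 CPM in knockdown and 238 to 248 CPM in wild type, and its part in the results below was not tested. The 8 leukocyte markers summed to 2.99 to 4.72 CPM in knockdown and 2.18 to 5.16 CPM in wild type, nearly all of it Cd68, with Cd3e at 0 in every library. The 5 endothelial markers summed to 0.71 to 1.19 CPM in knockdown and 1.07 to 3.19 CPM in wild type, with Cdh5 and Tek at 0 throughout. The 8 fibroblast markers summed to 1059 to 1126 CPM in knockdown and 1045 to 1235 CPM in wild type, nearly all of it the collagen gene Col3a1, with Thy1 at 0.

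Of the 10 genes, 6 fell in knockdown (Socs2, Socs3, Socs5, Socs6, Pim1 and Pim3), 0 rose, and 4 (Cish, Socs1, Socs4 and Socs7) did not pass the threshold of an adjusted p of 0.05 in edgeR's quasi-likelihood test. Over all tested genes 15.3% fell and 14.1% rose, 29.4% together. The median log2 fold change was -0.45 over the 10 genes and 0.001 over all tested genes. The same 6 genes had knockdown and wild-type levels that did not overlap, with knockdown lower, as did 17.6% of all tested genes. In bulk RNA, fewer cells that express a gene and less of its RNA per cell cannot be told apart.

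**Figure D1:**
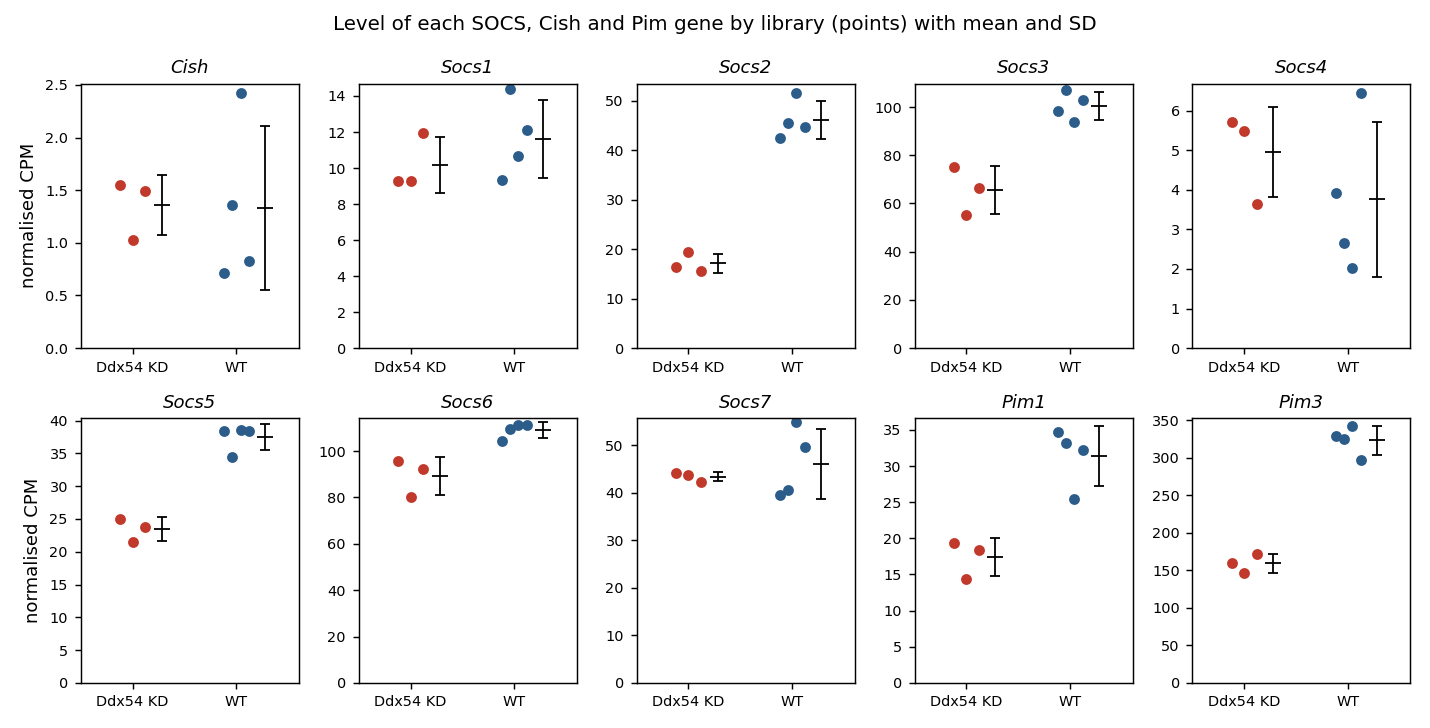
Normalised CPM (y axis, from 0 in each panel) of each gene in every library, with the 3 knockdown libraries left and the 4 wild-type libraries right. Points are libraries and the bar beside them is the mean and SD. In the panels of Socs2, Socs3, Socs5, Socs6, Pim1 and Pim3 every knockdown point lies under every wild-type point, and in the other 4 panels the groups overlap.

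Cish and Socs1 to Socs3 are the members best known as direct feedback inhibitors of JAK-STAT signalling, and their levels did not move alike. Socs2, which restrains growth hormone signalling by targeting the growth hormone receptor for degradation, was at 16.4, 19.4 and 15.5 CPM in the knockdown libraries and at 42.5, 45.6, 51.6 and 44.8 CPM in wild type. Every knockdown library was far under the lowest wild-type library. The mean was 17.1 ± 2.01 CPM in knockdown and 46.1 ± 3.91 CPM in wild type, a level of 37.1% of wild type and a log2 fold change of -1.43 (adjusted p = 3.47e-10, SE 0.13, edgeR). Only 1.58% of all tested genes had a fold change that low or lower. Socs2 lies on chromosome 10 at 95385362 to 95417180 on the minus strand (GRCm38, the assembly also called mm10, GENCODE M21).

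Socs3 (chromosome 11, 117966079 to 117970047, minus strand), the main brake on signalling through the shared receptor gp130, was at 75.2, 55.1 and 66.4 CPM in knockdown. It was at 98.2, 107, 93.9 and 103 CPM in wild type, so the groups did not overlap. Its log2 fold change was -0.62 (adjusted p = 4.8e-06, SE 0.095, edgeR), and its mean was 65.5 ± 10.1 CPM in knockdown against 100.5 ± 5.71 CPM in wild type. The log2 ratio of Socs2 to Socs3 within a library was -1.93 ± 0.37 in knockdown and -1.13 ± 0.18 in wild type, a difference of -0.81. An exact permutation test over the 7 libraries, two-sided, gave p = 0.0286, the smallest that this design allows, and 0.0571 adjusted over the 2 ratios compared. At that floor the adjusted p could pass only if both ratios reached it, so this test cannot settle whether the falls differ. The edgeR 95% intervals were -1.70 to -1.16 for Socs2 and -0.81 to -0.42 for Socs3.

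Socs1 (chromosome 16, 10782240 to 10785536, minus strand), which inhibits JAK kinase activity directly and limits interferon responses, was at 9.31, 9.28 and 11.97 CPM in knockdown. It was at 9.32, 14.4, 10.7 and 12.1 CPM in wild type, and the ranges overlapped. Wild-type libraries 2 and 4 were above every knockdown library. The log2 fold change was -0.19, with a 95% interval of -0.62 to 0.24 (adjusted p = 0.553, edgeR), which reaches the value fitted for Socs3. Cish (chromosome 9, 107296026 to 107302784, plus strand), a STAT5-induced inhibitor of growth factor and interleukin receptors, was near the limit of detection, with 26, 19 and 23 reads in the knockdown libraries and 13, 20, 37 and 14 reads in the wild-type libraries. Its 95% interval of -1.33 to 1.40 log2 units shows that a change of Cish was not detectable at this depth unless it was large. Its fitted fold change of 0.04 fell below 0 in 5 of the 14 other settings that kept it among the tested genes. Gene models on the opposite strand share exonic bases with Cish, 479 in Gm17041 and 261 in Gm17040. No source states the strand setting of the counting, so their reads cannot be told apart from those of Cish.

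Socs4 to Socs7 have longer amino-terminal regions, and Socs4 and Socs5 are better known for lowering epidermal growth factor receptor signalling. Socs5 (chromosome 17, 87107679 to 87137839, plus strand) was at 25.1, 21.5 and 23.8 CPM in knockdown and at 38.4, 34.5, 38.6 and 38.4 CPM in wild type. The groups were well apart, with a log2 fold change of -0.68 (adjusted p = 0.000104, SE 0.13, edgeR). Its closest relative, Socs4 (chromosome 14, 47276931 to 47296102, plus strand), was at 5.73, 5.48 and 3.64 CPM in knockdown and at 3.92, 2.65, 2.03 and 6.45 CPM in wild type. Wild-type library 4 was above every knockdown library and wild-type libraries 2 and 3 were below them, a spread that gave a 95% interval of -0.34 to 1.13 log2 units (adjusted p = 0.461, edgeR).

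Socs6 (chromosome 18, 88665224 to 88927481, minus strand), which is linked to signalling by receptor tyrosine kinases such as Kit, was at 95.6, 80.2 and 92.2 CPM in knockdown and at 104, 109.6, 111 and 111 CPM in wild type. The groups did not overlap but lay close together, and the log2 fold change was -0.29 (adjusted p = 0.00652, SE 0.082, edgeR). Without knockdown library 2, the lowest of the 3, the value was -0.22 and the call was lost (adjusted p = 0.092, edgeR). Socs7 (chromosome 11, 97362551 to 97398542, plus strand), known for interactions with insulin receptor substrates, was at 44.1, 43.7 and 42.3 CPM in knockdown and at 39.5, 40.5, 54.8 and 49.6 CPM in wild type. The knockdown libraries lay within the wild-type range, and the log2 fold change was -0.09 (95% interval -0.33 to 0.16, adjusted p = 0.642, edgeR). That interval excludes a fall of the size fitted for Socs3 or Socs5.

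Pim3 had the smallest adjusted p of the 10 genes. Pim3 (chromosome 15, 88862186 to 88865726, plus strand), a kinase described in epithelial tumours, was at 160.0, 146 and 171 CPM in knockdown and at 328, 325, 342 and 296 CPM in wild type. Its mean of 159 ± 12.4 CPM in knockdown was 49.3% of the 323 ± 19.4 CPM in wild type, with a log2 fold change of -1.02 (adjusted p = 5.9e-13, SE 0.071, edgeR). Pim1 (chromosome 17, 29490753 to 29496112, plus strand), which cooperates with Myc in lymphoma, was at 19.4, 14.4 and 18.3 CPM in knockdown and at 34.8, 33.2, 25.4 and 32.3 CPM in wild type. Wild-type library 3 was the lowest of its group and still above every knockdown library. The log2 fold change of Pim1 was -0.86 (adjusted p = 4.26e-05, SE 0.15, edgeR). The antisense model Gm26885 shares 488 exonic bases with Pim1, and its reads cannot be told apart from those of Pim1.

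The ratio of Pim1 to Pim3 CPM was 0.121, 0.0983 and 0.107 in knockdown and 0.106, 0.102, 0.0742 and 0.109 in wild type. The groups' ratios overlapped, and the mean log2 ratio was higher by 0.17 in knockdown (exact two-sided permutation p = 0.486, also after adjustment over the 2 ratios). The third Pim gene, Pim2, is not among the 10. It was at 2.51, 1.95 and 2.80 CPM in knockdown and at 0.44, 1.36, 0.92 and 1.48 CPM in wild type, higher in every knockdown library but at few reads. Its log2 fold change of 1.21 (SE 0.61) did not pass (adjusted p = 0.142, edgeR).

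**Figure D2:**
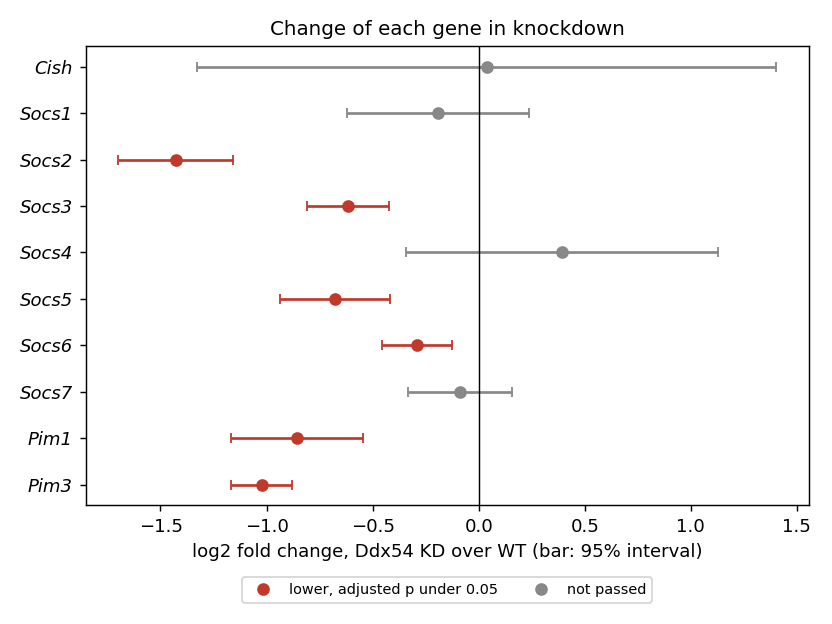
Log2 fold change of knockdown over wild type (x axis) for each gene, with the 95% interval as a bar. Red points are genes lower at an adjusted p under 0.05 and grey points did not pass; the interval is narrowest for Pim3, from -1.17 to -0.88, and widest for Cish.

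Levels were compared between genes per length, as CPM per kb of the union of a gene's annotated exons. Pim3 led in both groups, at 65.6 ± 5.11 CPM per kb in knockdown and 133 ± 7.995 in wild type. Socs3 came next, at 22.7 ± 3.48 CPM per kb in knockdown and 34.8 ± 1.97 in wild type, and was thus the most abundant SOCS transcript. Socs6 followed at 7.87 ± 0.71 CPM per kb in knockdown and 9.62 ± 0.30 in wild type. Pim1 had 5.17 ± 0.79 CPM per kb in knockdown and 9.35 ± 1.23 in wild type, where its range overlapped that of Socs6. Socs7, at 5.98 ± 0.13 CPM per kb in knockdown and 6.35 ± 1.01 in wild type, was above Pim1 in every knockdown library. Socs5 had 3.66 ± 0.28 CPM per kb in knockdown and 5.84 ± 0.31 in wild type, with a range that overlapped that of Socs1 in knockdown (3.50 ± 0.53) and that of Socs7 in wild type. Socs2 had 1.80 ± 0.21 CPM per kb in knockdown and 4.84 ± 0.41 in wild type, where it overlapped Socs1 (3.998 ± 0.75). Socs4 and Cish came last in both groups, at 0.72 ± 0.17 and 0.21 ± 0.04 CPM per kb in knockdown and 0.55 ± 0.28 and 0.21 ± 0.12 in wild type. The middle of this order depends on the length used. With the longest transcript as the length, Socs2 had 4.03 CPM per kb in knockdown and 10.9 in wild type, and Socs6 had 14.8 in knockdown and 18.1 in wild type. Socs6 then lay above Pim1 in wild type (11.6 ± 1.53) without overlap, as did Socs5 (5.05 ± 0.39) above Socs1 (3.50 ± 0.53) in knockdown, while Pim1 (6.44 ± 0.98) overlapped Socs7 (6.19 ± 0.13) in knockdown. In wild type Socs5 had 8.06 ± 0.43 and Socs7 6.58 ± 1.05 CPM per kb. Gene counts do not show which transcripts LLC1 makes. The lengths are from GENCODE M21, and the annotation used for the counting is not given, so lengths and counts may rest on different gene models.

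Cish and Socs1 to Socs7 together gave 50.4, 41.7 and 47.1 CPM per kb in knockdown and 62.9, 68.0, 65.6 and 68.1 CPM per kb in wild type. Socs3 supplied 45.7 to 51.6% of this sum in knockdown and 49.5 to 54.5% in wild type. The share of Socs2 was 3.42 to 4.88% in knockdown and 6.89 to 8.26% in wild type, without overlap. Socs6 and Socs7 took larger shares in knockdown, 16.7 to 17.2% and 12.1 to 14.4%, than in wild type, where they took 14.2 to 14.9% and 8.21 to 11.5%. With the longest transcript as the length, an alternative chosen after seeing the data, the sum was 54.5 to 65.2 CPM per kb in knockdown and 83.6 to 89.9 in wild type, and the share of Socs2 was 5.93 to 8.38% in knockdown and 11.7 to 13.8% in wild type.

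**Figure D3:**
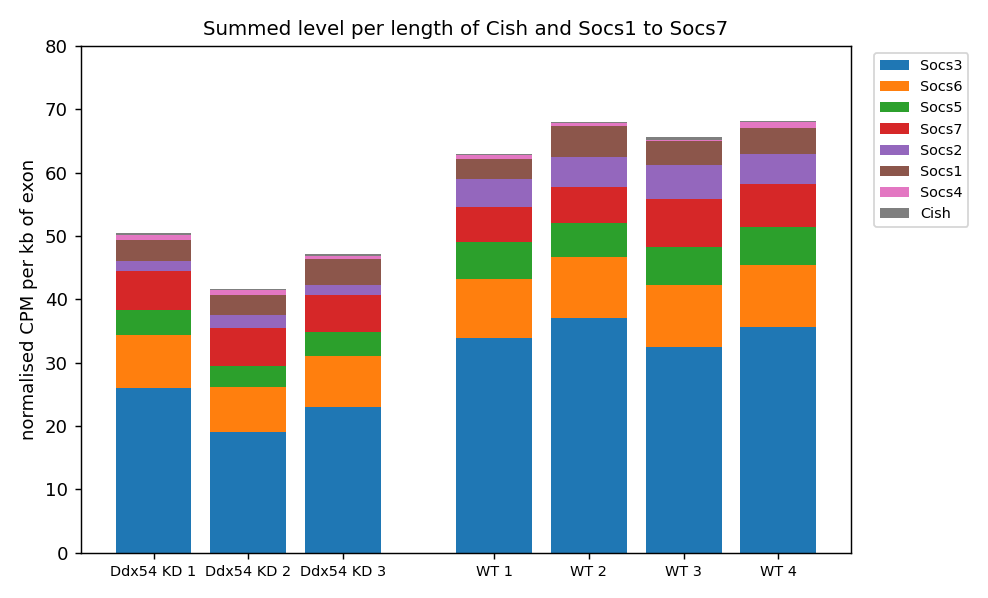
Stacked level per length (normalised CPM per kb of exon, y axis) of Cish and Socs1 to Socs7 in each library, knockdown left and wild type right. The sums are 41.7 to 50.4 in knockdown and 62.9 to 68.1 in wild type, and Socs3, the lowest block, is the largest part of every bar.

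The promoters of the genes were searched for TTCNNNGAA, the palindromic motif that STAT dimers bind, to show what the start regions of genes that fell and that did not hold. RefSeq windows (GRCm38.p6) of 250 bases before to 50 bases after a transcript start were on hand for 6 of the 10 genes, in 7 windows, since Pim1 has 2 starts. Of these windows 2 held the motif, those of Socs3 and Cish, and 8.3% of 32851 mouse windows of that length hold it. The window of Cish held TTCCTGGAA and TTCTTGGAA, which begin at bases 1 and 12 of the transcript. That of Socs3 held TTCTTAGAA, which begins 154 bases before the start. The windows of Socs1, Socs4, Pim1 and Pim3 held no match, and of these genes Pim1 and Pim3 fell. No window was on hand for Socs2, Socs5, Socs6 and Socs7, and bases outside the windows were not searched. A match is a description of letters and not a bound site. The windows of Socs3, Cish and Pim3 are printed 5′ to 3′ on the gene's strand, with each match in capitals.
Socs3, chr11:117969317-117969616, minus strand: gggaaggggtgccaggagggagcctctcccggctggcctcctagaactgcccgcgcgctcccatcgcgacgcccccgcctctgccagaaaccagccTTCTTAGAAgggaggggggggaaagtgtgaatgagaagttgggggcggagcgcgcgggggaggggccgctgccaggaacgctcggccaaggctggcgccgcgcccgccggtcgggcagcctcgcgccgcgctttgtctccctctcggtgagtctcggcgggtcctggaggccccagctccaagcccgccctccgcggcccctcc
Cish, chr9:107296409-107296708, plus strand: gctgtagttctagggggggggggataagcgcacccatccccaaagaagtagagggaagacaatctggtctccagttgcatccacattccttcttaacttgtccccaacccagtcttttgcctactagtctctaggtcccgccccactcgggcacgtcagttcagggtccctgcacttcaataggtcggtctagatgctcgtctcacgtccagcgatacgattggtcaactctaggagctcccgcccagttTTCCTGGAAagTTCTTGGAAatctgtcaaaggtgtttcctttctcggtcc
Pim3, chr15:88861944-88862243, plus strand: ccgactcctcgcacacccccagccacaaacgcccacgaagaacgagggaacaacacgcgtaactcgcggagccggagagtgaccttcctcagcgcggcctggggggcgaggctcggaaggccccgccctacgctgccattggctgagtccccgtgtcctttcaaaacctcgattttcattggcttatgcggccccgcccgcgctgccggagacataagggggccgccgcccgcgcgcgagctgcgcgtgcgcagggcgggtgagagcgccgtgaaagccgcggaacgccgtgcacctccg

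Several of these genes are known for short-lived mRNAs, a property often linked to AU-rich elements in the 3′ UTR. The heptamer TATTTAT was counted on the sense strand of the longest annotated 3′ UTR of each gene (GENCODE M21), overlapping matches included. It was present in 7 of the 10 genes and present at least 2 times in 4 of them, against 31.3% and 11.3% of 10748 tested genes with a 3′ UTR. Pim1 held 4 matches, Cish 3, Socs3 and Pim3 2 each, and Socs2, Socs4 and Socs5 1 each, while Socs1, Socs6 and Socs7 held 0. So 5 of the 6 genes that fell and 2 of the 4 that did not pass had a match. The 3′ UTRs of the 10 genes ran from 964 bases (Pim3) to 5184 bases (Socs7), against a median of 1207 over tested genes, and length was not matched. The first match in each of the 4 genes with several, in capitals with 10 bases on either side, reads 5′ to 3′ as follows.
Pim1: agttttaatgTATTTATttatttattt
Pim3: cacggtctctTATTTATggtgtgatca
Socs3: tttgcacataTATTTATatttatactc
Cish: agttatacagTATTTATttatttattc

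Of 15 tested cytokine receptor genes 4 fell and 0 rose, with a median log2 fold change of -0.01. Over all tested genes 15.3% fell and 14.1% rose. Il4ra, the interleukin 4 receptor chain, fell (-0.77, SE 0.13), as did the interferon gamma receptor gene Ifngr1 (-0.69, SE 0.15). Ghr, the growth hormone receptor that Socs2 regulates, averaged 23.2 ± 3.03 CPM in knockdown and 34.6 ± 1.67 CPM in wild type (-0.57, SE 0.13, adjusted p = 0.00108, edgeR). Il6st, which encodes gp130, averaged 15.2 ± 1.79 CPM in knockdown and 14.9 ± 1.30 CPM in wild type and did not pass (adjusted p = 0.94, edgeR). Osmr, the oncostatin M receptor, averaged 0.38 CPM in knockdown and 0.21 CPM in wild type, too low to be tested.

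Of the 25 cytokine genes that act through these receptors, 15 had no read in any library and 5 could be tested. Il11, a cytokine that signals through gp130, fell to 16.9 ± 1.66 CPM in knockdown, against 32.6 ± 1.21 CPM in wild type (-0.95, SE 0.14, adjusted p = 2.86e-06, edgeR), and the other 4 did not pass. The median over the 5 was -0.57, and over all tested genes 15.3% fell and 14.1% rose.

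Among 10 tested Janus kinase and STAT genes 2 fell and 0 rose (15.3% and 14.1% of all tested genes), with a median of 0.04. Jak1, the kinase shared by gp130 and interferon receptors, averaged 386 ± 11.6 CPM in knockdown and 485 ± 4.73 CPM in wild type, with a log2 fold change of -0.33 (SE 0.059). Stat3, the factor that induces Socs3 downstream of gp130, was at 55.7, 60.1 and 59.7 CPM in knockdown and at 73.9, 78.2, 85.4 and 79.7 CPM in wild type (-0.44, SE 0.092, adjusted p = 0.000345, edgeR). Stat5a and Stat5b, the factors that induce Cish and Socs2, did not pass. Stat5b averaged 28.1 ± 4.85 CPM in knockdown and 27.1 ± 5.73 CPM in wild type, and Stat5a averaged 3.29 ± 1.81 CPM in knockdown and 3.36 ± 0.96 CPM in wild type. Jak2 (0.07) did not pass either.

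Other negative regulators of the pathway fell in 3 of 11 cases (15.3% of all tested genes), with 0 higher (14.1%) and a median of -0.04. Sh2b3, an adaptor that restrains JAK2 signalling, averaged 50.1 ± 1.17 CPM in knockdown and 84.4 ± 12.1 CPM in wild type (-0.75, SE 0.10). Pdlim2, which promotes STAT degradation, fell by 0.32 on the log2 scale. The phosphatase gene Ptpn2 had a fold change of -0.24 (adjusted p = 0.0419, edgeR) and lost its call without any single library other than wild-type library 1 and with no low-count filter. Over all settings its adjusted p ran from 0.0223 to 0.153.

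Of 18 tested STAT target genes other than the 10, 11 fell and 2 rose (15.3% and 14.1% of all tested genes), with a median of -0.42. Il4ra is also in the receptor list, and Junb and Fos are also among the immediate early genes below, so these lists are not independent. Bcl3, an NF-kB cofactor, averaged 2.59 ± 0.46 CPM in knockdown and 6.63 ± 1.54 CPM in wild type (-1.35, SE 0.32), and Cebpd, an acute-phase transcription factor, 5.12 ± 1.41 CPM in knockdown and 12.6 ± 3.68 CPM in wild type (-1.30, SE 0.25). Myc, whose product Pim kinases stabilise, fell by 1.01 on the log2 scale (SE 0.093). Birc5, which encodes survivin, rose (0.56, SE 0.063), as did the survival gene Mcl1 (0.24, SE 0.073), although Mcl1 lost its call without knockdown library 1 (0.20, adjusted p = 0.0791, edgeR).

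The SOCS box acts by recruiting elongins B and C and a Cullin 5 ligase. Of 18 tested genes for ligase components and other SOCS-box proteins, 1 rose and 1 fell (14.1% and 15.3% of all tested genes), with a median of 0.09. Tceb2, which encodes elongin B, averaged 330 ± 9.09 CPM in knockdown and 334 ± 23.6 CPM in wild type, and Cul5 averaged 128 ± 1.46 CPM in knockdown and 133 ± 4.07 CPM in wild type. Neither passed. Asb6 (0.46) rose, a call lost without knockdown library 2 or 3 or wild-type library 1 (adjusted p up to 0.137, edgeR). Asb7 (-0.45) fell, a call lost without knockdown library 1 or 3 or wild-type library 1 (adjusted p up to 0.145, edgeR).

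Pim1, Pim3 and Socs3 also respond quickly to serum and handling, so immediate early genes are given beside them. Of 21 tested, 9 fell and 1 rose (15.3% and 14.1% of all tested genes), with a median of -0.28. Atf3 averaged 4.79 ± 1.39 CPM in knockdown and 19.3 ± 6.71 CPM in wild type (-2.01, SE 0.25), Egr1 averaged 37.2 ± 8.04 CPM in knockdown and 77.8 ± 19.2 CPM in wild type (-1.06, SE 0.22), and Klf4 fell by 0.95 on the log2 scale. Cyr61 rose (0.42, adjusted p = 0.043, edgeR), a call lost with DESeq2, without any single knockdown library and without wild-type library 1 or 2 (adjusted p up to 0.181, edgeR). The other genes of this list that fell were Junb (-0.75), Ier3 (-0.71), Ier5 (-0.54), Ier2 (-0.47), Jund (-0.33) and Jun (-0.22). Fos and Dusp1, which respond early to handling, were among the 11 that did not pass. They rested on few reads, at 3.66 and 4.51 CPM in knockdown against 4.44 and 4.68 CPM in wild type. The part of serum or handling in the fall of the Pim and Socs genes was not tested.

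**Figure D4:**
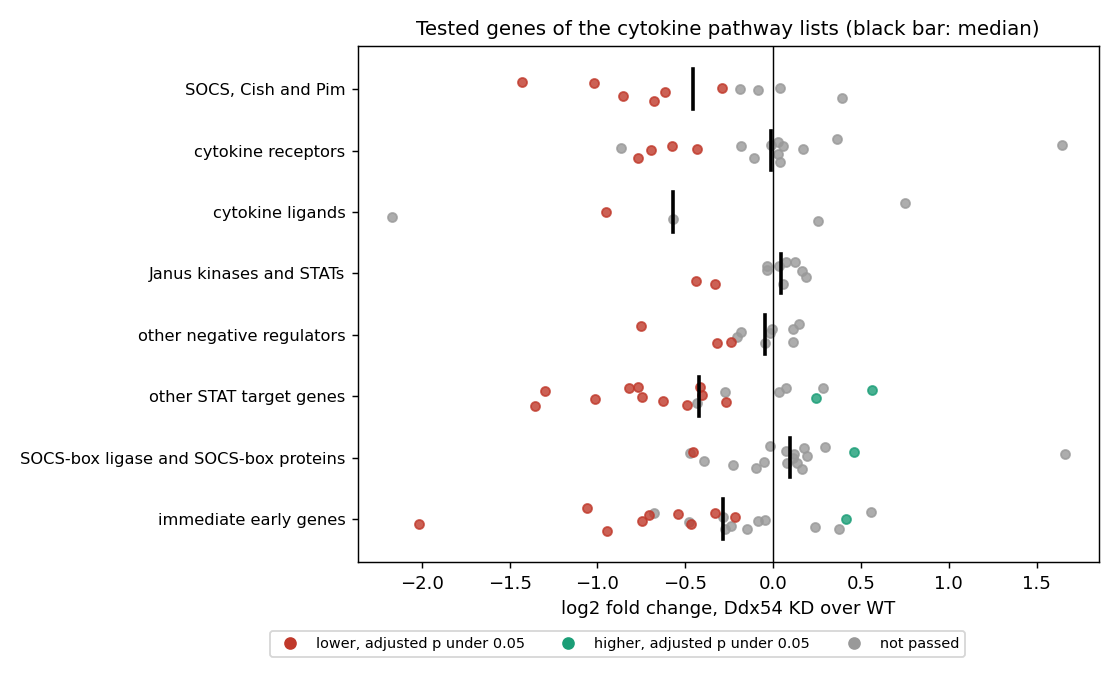
Log2 fold change of knockdown over wild type (x axis) of each tested gene, by list (rows), with the median as a black bar. Red points fell, green points rose and grey points did not pass; the medians of the 10 SOCS, Cish and Pim genes (-0.45) and of the other STAT target genes (-0.42) lie left of 0, as do those of the 5 cytokine genes (-0.57) and the immediate early genes (-0.28), while that of the Janus kinases and STATs is 0.04. Il4ra is drawn under both receptors and STAT targets, and Junb and Fos under both STAT targets and immediate early genes.

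The genes whose levels followed Pim3 and Socs2 most closely over the 7 libraries were sought among 7835 other tested genes of at least 10 CPM, by Pearson's r of log2 CPM. For Socs2 these were the choline transporter-like gene Slc44a2 (r = 0.999), the tetraspanin gene Tspan9 (r = 0.997) and Maf1, a repressor of RNA polymerase III (r = 0.996). Maf1 averaged 28.1 ± 2.23 CPM in knockdown and 75.7 ± 4.68 CPM in wild type, with a log2 fold change of -1.43. For Pim3 they were Aimp1, which encodes a scaffold protein of the tRNA synthetase complex, the glycosyltransferase gene Galnt1 and the thrombin receptor gene F2r, each at r = 0.997 or 0.996. Of these 6 genes 5 fell, and Aimp1 did not pass, at 264 ± 2.06 CPM in knockdown against 294 ± 2.52 CPM in wild type (-0.16, adjusted p = 0.05003, edgeR). Aimp1 passed as lower in some other settings (adjusted p = 0.0144, DESeq2) and not in others (adjusted p up to 0.138, edgeR). In all 6 every knockdown library was under every wild-type library, as in 17.6% of all tested genes. As r over these 7 points includes that difference between the groups, genes chosen by it for Pim3 and Socs2 would be lower in knockdown too.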

How the data were processed

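The authors deposited raw read counts for 24419 gene symbols in a table of 7 columns, from polyadenylated LLC1 RNA of 3 knockdown and 4 wild-type libraries, with 0 further sample columns. Trimmomatic, STAR, HTSeq and the build mm10 are named in the submitters' processing notes, which give no role or version. Annotation, strand setting and the handling of multi-mapped reads: not given in the sources used here.

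edgeR 4.0.16 (R 4.3.3) filtered genes by filterByExpr on the group, scaled libraries by TMM and ran the robust quasi-likelihood test of knockdown over wild type, with no covariate, on the whole table. Benjamini-Hochberg adjustment covered all tested genes, at a threshold of 0.05. SE, an approximation, is the size of the log2 fold change over the square root of F, and 95% intervals use it. CPM is scaled by the TMM factors. Values are mean ± SD over n = 3 knockdown and n = 4 wild-type libraries. Pearson's r and the exact permutation test of Ddx54 (p = 0.0286) add 0.5 CPM. The test was also run on counts simulated with edgeR's own dispersions and independent libraries, which cannot show its error rate in these data. Positions and lengths are from GENCODE M21 (GRCm38).

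The 10 genes and the lists were chosen with earlier results of these data known. Named beside the 10 genes are Ddx54, Pim2, Stat3, Stat5a, Stat5b, Jak1, Jak2, Il6st, Osmr, up to 3 called genes per list and direction, and the genes closest to the 2 members with the smallest adjusted p. Tceb2, Cul5, Fos, Dusp1, Jun, Junb, Jund, Ier2, Ier3, Ier5 and the cell type markers were named after their values were seen. 1 gene of the naming rule is not reported here. Some alternatives changed the factors (RLE, upper quartile), others the filter (none, or 50 counts in 3 or more libraries). The test was also DESeq2 1.42.0 or limma-voom (limma 3.58.1). Further settings used the replicate number as a block, left Rn45s out of the library sizes, or left out each library. Chi-square per degree of freedom between libraries of a group was 8.52 to 16.9, above sampling noise for every pair.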

Additional observations from a re-analysis of the deposited data

Results flagged for a closer look

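Of 45 quantities examined in the 4 wild-type libraries (the genes named by rule, library totals and the Rn45s share), 1 had a library far from its group, where chance gives about 2.25. Socs5 was at 34.5 CPM in wild-type library 2, against 38.4 to 38.6 CPM in the other wild-type libraries. That library was still above all 3 knockdown libraries, and without it the log2 fold change of Socs5 was -0.71 (adjusted p = 8.77e-05, edgeR).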

How the results depend on the processing

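Over the 15 other settings, genes higher in knockdown numbered 1222 to 1744 and genes lower 1409 to 1860. Of the 10 genes, 5 or 6 fell and 0 rose in every setting, the exception to 6 being the loss of Socs6 without knockdown library 2. Socs2 stayed between -1.53 and -1.36, Socs3 between -0.73 and -0.51, Socs5 between -0.73 and -0.62, Pim1 between -0.95 and -0.74, and Pim3 between -1.08 and -0.97 log2 units, each past the threshold throughout. Of the 4 members that did not pass, Socs1 (-0.32 to -0.07) and Socs4 (0.18 to 0.81) kept their sign. Cish and Socs7 turned sign when libraries were left out, Cish ranging from -0.18 to 0.49 and Socs7 from -0.16 to 0.0037, as did Stat5a (-0.54 to 0.27), Stat5b (-0.082 to 0.17) and Il6st (-0.048 to 0.12). Cish could not be tested at 50 counts in 3 libraries. The replicate number paired nothing, since same-numbered knockdown and wild-type libraries had deviations correlated at -0.0373, -0.0226 and -0.0104. With it as a replicate block, Cish was at -0.014, the 6 genes kept their calls (Socs6 adjusted p = 0.032, edgeR), and Egr1, Asb7 and Ptpn2 lost theirs. A motif with a spacer longer by 1 base (in 6.95% of mouse windows) was in 0 windows of the 10 genes. Depth limits Cish, Socs4, Pim2, Stat5a, Fos and Krt19, which rest on at most 109 reads a library.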
